A study of Mus musculus with 10 samples.

Results

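H19, its neighbour Igf2 and 8 further imprinted genes that act on growth or differentiation (Igf2r, Dlk1, Meg3, Peg3, Plagl1, Grb10, Mest and Ndn) were followed in mouse skeletal stem and stromal cells. They were taken by symbol from a table of normalized read counts, in which 10 of 10 were found among 15078 genes. H19 was included because it differs strongly between periosteum and marrow in these libraries, so its levels in those tissues are a description and not a test, as are those of the other members in that contrast.

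The study asked whether periosteal skeletal stem cells (P-SSCs) can enter the marrow after bone transplantation and there acquire properties of bone marrow mesenchymal stem cells (BM-MSCs). RNA came from sorted CD51+CD200+ stromal cells outside the CD45, Ter119 and CD31 gates. Graft BM-MSCs (n = 4) came from the marrow of a femur 5 months after it was placed under the skin of a wild-type recipient. The donor femur carried a tamoxifen-inducible Cre under the Postn promoter and a tdTomato reporter, tamoxifen was given to the recipient soon after surgery, and only Tomato+ cells were sorted. BM-MSCs (n = 3) and P-SSCs (n = 3) were taken at steady state from mice that the sample titles call host. The study names wild-type mice as the source of such cells for its panel of Postn expression. It does not restate their genotype for the sequencing. One library of each of these groups, BM-MSC 2+4 and P-SSC 2+5, holds the RNA of a pair of mice. The labels give no ages, but the study's methods place its mice at several weeks of age unless stated otherwise. Graft cells were taken 5 months after surgery, so they were probably older than the steady-state cells. Postn is also active in other connective tissue cells such as fibroblasts and osteoblasts, so the reporter marks descent from Postn-expressing cells rather than from one cell type. The grafts also differ from both other groups in the transplantation itself and the months that passed after it. As far as the sources state, they differ in genotype and tamoxifen too. The labels give the steady-state libraries as re-analysed from another submission, and none of these differences can be told apart from one another. In bulk RNA, fewer cells that express a gene and less RNA per cell cannot be told apart either.

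Imprinted genes are expressed mainly or only from the maternal or the paternal copy, a choice set by DNA methylation laid down in the germ line. Many act on growth: IGF2 is a paternally expressed growth factor, and IGF2R, maternally expressed in the mouse, takes IGF2 out of circulation. Most of them are high in fetal tissues and fall after birth, while some stay on in adult stem and stromal cells. The sequenced RNA was not assigned to a parental copy, so the values are totals over both copies and say nothing on imprinting itself.

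H19 is a long noncoding RNA that also serves as the precursor of a microRNA. On chromosome 7 of GRCm38 (positions 142575529 to 142578143, minus strand), the H19 gene covers 2460 bases of annotated exon, and the hairpin of miR-675 lies within an exon of 3 of its 7 annotated transcripts. Both mature products are shown because they are cut from H19 RNA, whose transcripts with and without the hairpin were not told apart in the counts, with the seed (bases 2 to 8) in capitals and the sequence from RefSeq (GRCm38.p6). Mature microRNAs themselves were not measured by this poly(A) sequencing.
mmu-miR-675-5p: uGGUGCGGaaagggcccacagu
mmu-miR-675-3p: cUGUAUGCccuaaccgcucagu
The seeds of the pair differ, so each would pair with its own set of targets.

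RefSeq start-site windows (250 bases before to 50 after the start) were at hand for 9 of the 10 members, in 16 windows. Those of Ndn, Peg3 and Meg3 are printed as examples of members that were lower in every graft library than in every P-SSC library. These 3 genes are known to be silenced by methylation on 1 parental copy in other settings. Grb10, Mest and Dlk1 showed the same order of libraries, and their windows are not printed. Capitals mark CG dinucleotides, the bases that carry this methylation.
Ndn (chr7:62348027-62348326, plus strand): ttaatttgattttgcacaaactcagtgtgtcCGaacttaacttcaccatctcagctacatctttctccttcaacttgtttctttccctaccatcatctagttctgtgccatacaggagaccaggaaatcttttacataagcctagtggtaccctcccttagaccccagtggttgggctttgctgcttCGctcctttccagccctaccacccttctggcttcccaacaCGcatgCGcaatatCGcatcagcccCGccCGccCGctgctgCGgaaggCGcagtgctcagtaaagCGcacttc
Peg3 (chr7:6730370-6730669, minus strand): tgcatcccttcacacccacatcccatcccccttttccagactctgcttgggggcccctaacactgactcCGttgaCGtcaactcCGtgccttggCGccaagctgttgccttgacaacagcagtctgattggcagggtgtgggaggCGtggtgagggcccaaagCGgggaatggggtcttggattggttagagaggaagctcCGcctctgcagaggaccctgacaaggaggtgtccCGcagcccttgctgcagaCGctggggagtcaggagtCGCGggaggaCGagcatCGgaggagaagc
Meg3 (chr12:109540746-109541045, plus strand): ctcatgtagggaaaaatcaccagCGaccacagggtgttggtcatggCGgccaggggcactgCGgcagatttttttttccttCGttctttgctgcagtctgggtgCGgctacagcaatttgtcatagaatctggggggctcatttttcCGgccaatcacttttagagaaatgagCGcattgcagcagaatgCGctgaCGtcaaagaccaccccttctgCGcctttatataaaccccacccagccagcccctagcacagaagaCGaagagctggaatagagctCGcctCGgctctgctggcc
The Ndn window held 11 CG dinucleotides, that of Peg3 13 and that of Meg3 13, against a median of 7 over 32851 mouse start-site windows. The letters TGCCGC, the core that ZFP57 reads when methylated to maintain imprints, were searched on both strands and stood in 6 of the 16 member windows, some of which overlap each other, and in 11.6% of all windows. The YY1 motif GCCATNTT (in 6.05% of all windows) and the core motif of CTCF (in 0.0365%) stood in 0 of the 16. Such matches describe the letters in these windows only, and neither methylation nor binding was measured.

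Libraries held 15415421 to 25223295 reads in genes, and values below are normalized counts, the authors' counts divided by a size factor for each library. A value of 1 read was worth 0.565 to 1.27 normalized counts. The graft libraries left gaps that the others did not: of genes well expressed in the other libraries, 0.898 to 8.78% were listed at 0 in a graft library, against 0.0135 to 0.363% in a steady-state library. A graft value of 0 is therefore given as listed at 0 and not as absence. GC-rich genes were read strongly in the 4 graft libraries and P-SSC 4 and weakly in the other 5, so the grafts and this GC pattern cannot be told apart in the comparison with BM-MSCs. A fit with the GC pattern as a covariate takes the effect of the pattern from P-SSC 4 against P-SSC 1 and P-SSC 2+5 alone. Graft differences adjusted in this way therefore rest on P-SSC 4. Over the 13644 genes that entered the test, the median log2 difference lay at -0.53 for grafts against BM-MSCs and at -0.47 against P-SSCs, and the members' differences are to be read against these. Per the study's methods, the replicates hold RNA of different mice.

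The sorted populations carried the markers of their labels. Cd200 and Itgav RNA was found in all 10 libraries. The summed level of 7 marrow stroma markers such as Cxcl12 and Lepr was 714858 to 1184256 in the 7 marrow libraries and 5515 to 11305 in P-SSCs, and that of 7 periosteal and fibroblast markers such as Postn and Thbs4 was 791707 to 1301100 in P-SSCs and 6065 to 46809 in marrow.

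**Figure D1:**
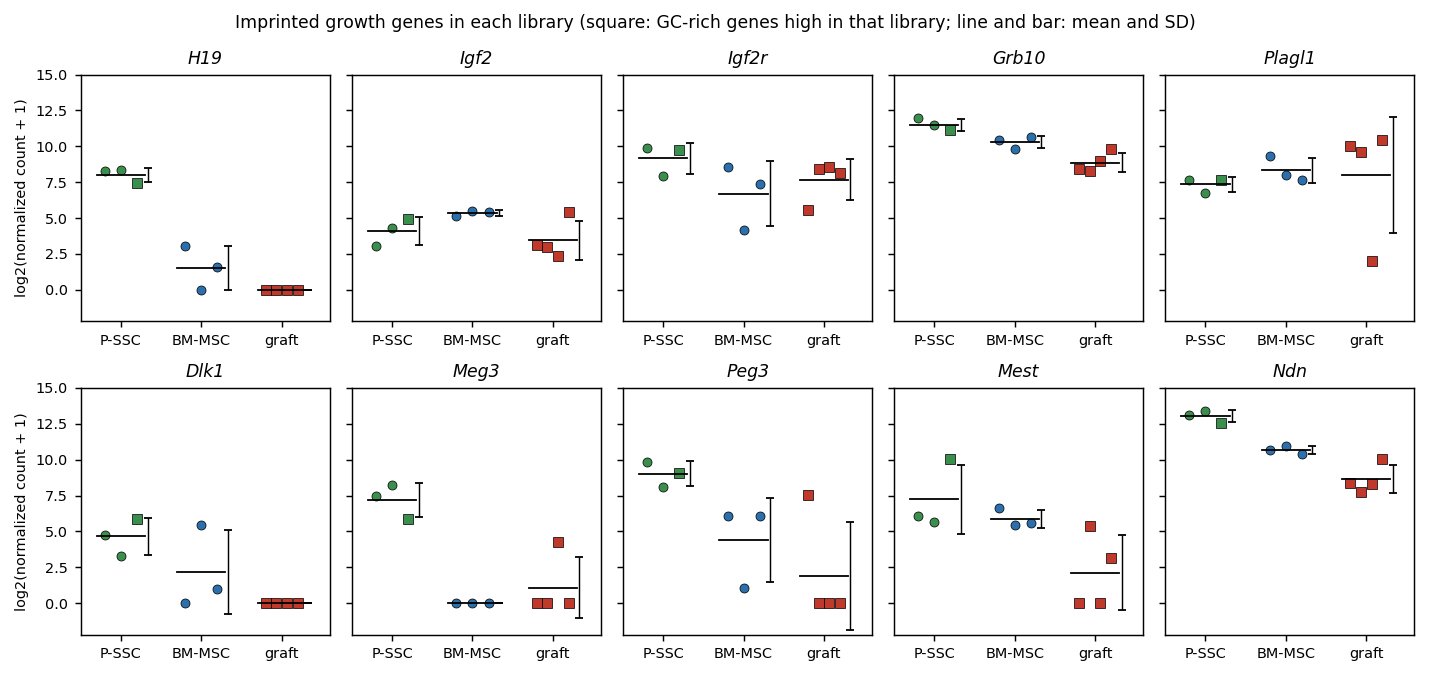
Normalized counts of the 10 members, as log2(value + 1), in each P-SSC (green), BM-MSC (blue) and graft BM-MSC (red) library, with the mean and SD of each group of 3, 3 and 4 libraries. Squares are libraries with the high GC pattern. H19, Meg3, Peg3, Grb10 and Ndn lie higher in all 3 P-SSC libraries than in every marrow library, while Igf2 and Plagl1 do not.

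H19 was a periosteal RNA in these libraries. It stood at 304 in P-SSC 1, 322 in P-SSC 2+5 and 174 in P-SSC 4. In BM-MSCs it was 7.31, 0 and 1.97, which are 7, 0 and 2 reads, and it was listed at 0 in all 4 graft libraries. All 3 P-SSC libraries were thus high and all 7 marrow libraries at or near 0. The group mean was 267 ± 80.7 (SD, n = 3) in P-SSCs, 86.3-fold that of BM-MSCs (3.09 ± 3.78, n = 3), and the grafts were at least 109-fold lower than P-SSCs, taking 3 reads in each graft library as the floor. Within libraries of the low GC pattern alone, the mean was 313 in 2 P-SSC libraries and 3.09 in 3 BM-MSC libraries. At this depth 3 reads correspond to 0.119 to 0.195 ppm of a library's reads. H19 reached the mean of at least 10 needed for the test through P-SSCs only, and both marrow groups were at or near 0. The test of grafts against BM-MSCs (log2 difference -1.54 ± 1.01 SE, Benjamini-Hochberg adjusted p = 0.366, limma) therefore cannot show whether these groups differ in H19. The sign of that difference turned to 0.59 after quantile normalization.

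Part of the skeletal muscle markers lay in the same libraries as H19, which is itself a muscle-expressed RNA. Of 15 muscle markers listed, 10 were in the table, and their summed level was 1408 to 3698 in P-SSCs, 881 to 1252 in BM-MSCs and 328 to 2000 in grafts. Most of the marrow sum was desmin (Des), which pericytes also express. Actin Acta1 was 547, 893 and 206 in the P-SSC libraries and listed at 0 in all 7 marrow libraries. The satellite cell factor Pax7 was 56.1, 204 and 59.1 in P-SSCs, 0, 0 and 5.92 in BM-MSCs and 0 in all 4 grafts. The creatine kinase Ckm and the muscle regulator Myod1 were also at 0 in all 7 marrow libraries. The myosin light chains did not follow this order. Mylpf was 42.6, 82.8 and 38.8 in P-SSCs, 28.2, 99.1 and 127 in BM-MSCs and 0, 246, 1.01 and 38.8 in grafts. Myl1 was 24.9, 103 and 35.9 in P-SSCs, 21.9, 47.5 and 0 in BM-MSCs and 26.0, 0, 75.5 and 155 in grafts, so both overlapped between all groups. By limma at an adjusted p under 0.05, 5 of the 10 markers were higher in P-SSCs than in BM-MSCs, beside 4.57% of all genes. In grafts 7 were lower than in P-SSCs, beside 12% of all genes. Of the 10 markers, 0 were at 0 in every P-SSC library. The part of muscle cells in the H19 level was not tested.

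**Figure D2:**
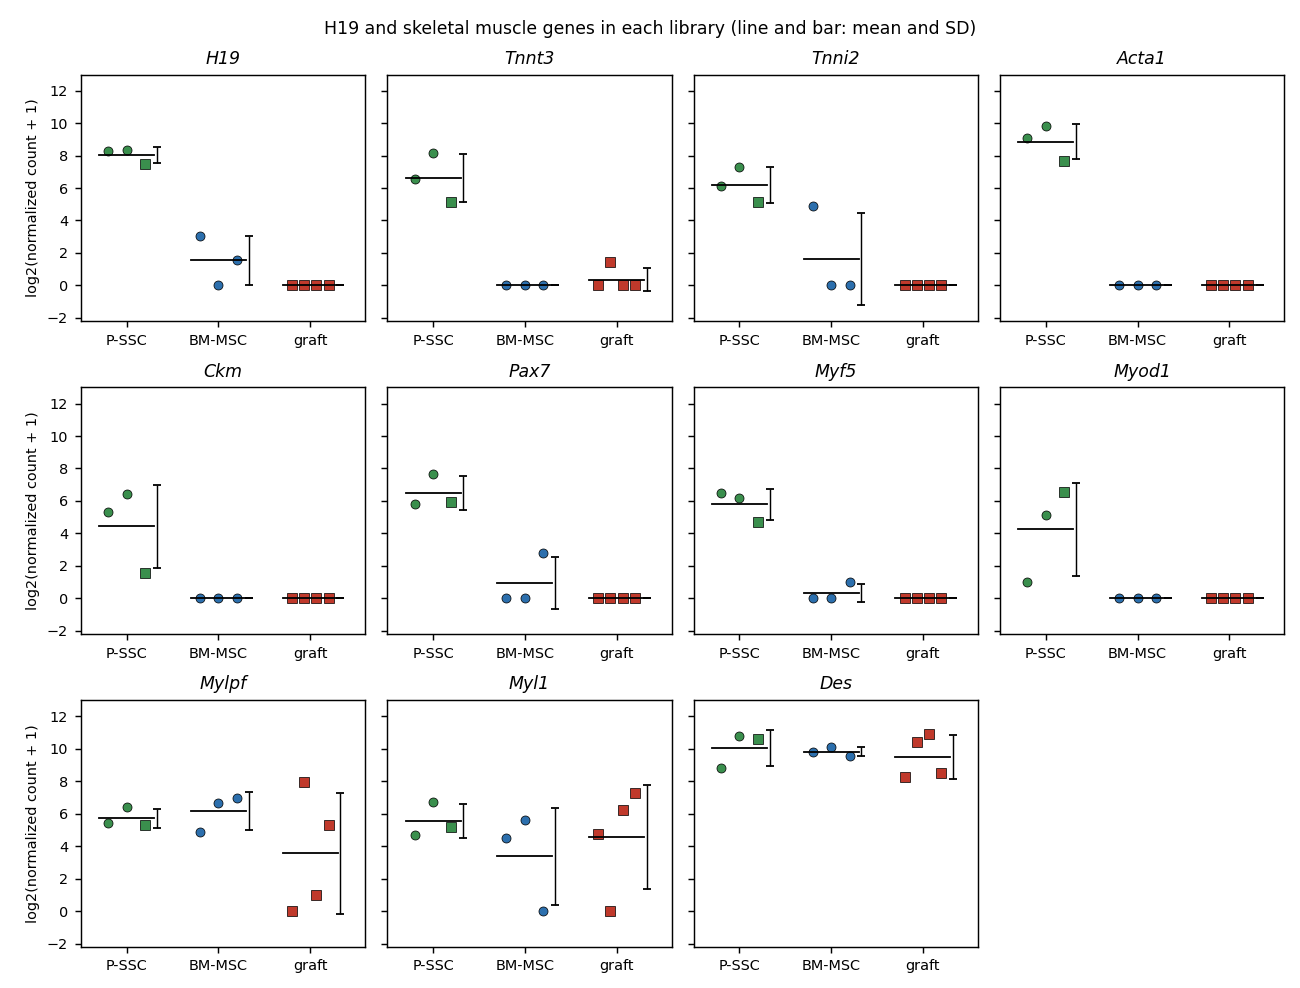
H19 and the 10 skeletal muscle genes as log2(normalized count + 1) in the same libraries and colours as above, with mean and SD. Tnnt3, Tnni2, Acta1, Ckm, Pax7, Myf5 and Myod1 are above 0 in all 3 P-SSC libraries and mostly at 0 in marrow, as H19 is, while Mylpf, Myl1 and Des are present in every group.

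Muscle genes are also neighbours of H19 in the genome. The troponin genes Tnnt3 and Tnni2 lie within 200000 bases of H19 on chromosome 7. Tnnt3 was 94.5, 280 and 34.9 in P-SSCs, with 1.69 in graft 2 and 0 in the other marrow libraries. Tnni2 was 69.6, 155 and 33.9 in P-SSCs, with 29.2 in BM-MSC 1 and 0 in the other marrow libraries. The leukocyte cytoskeletal gene Lsp1, in the same interval, was 10865, 11063 and 5746 in P-SSCs and 0 to 937 in marrow. Syt8, a synaptotagmin gene in this interval, ran the other way, at 162, 149 and 0 in BM-MSCs, 15.6, 1.27 and 0 in P-SSCs and 0 in all 4 grafts. Mrpl23, a mitochondrial ribosomal protein gene 34782 bases from H19, was found in all 10 libraries.

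The 8 genes whose pattern was most like that of H19 were chosen by the Pearson correlation of log2(value + 1) over the 10 libraries, among 9546 genes with a mean of at least 100. They were Sbsn, Radil, Edn1 (endothelin), C7 (a complement component), Rhoa, Sema3e, Lgi3 and Thbs4 (a tendon and periosteum matrix protein), with r from 0.985 to 0.995. Apart from Rhoa, they were at or near 0 in marrow, and 2.01% of the 9546 genes had r of at least 0.9. The libraries fall into separate tissues, so these values describe a shared contrast between periosteum and marrow.

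Igf2, 72.6 kb from H19, did not share its pattern. Igf2 was 7.27, 19.1 and 29.1 in P-SSCs, 34.5, 44.3 and 41.4 in BM-MSCs and 7.91, 6.75, 4.03 and 42.3 in grafts. All 3 BM-MSC libraries were above all 3 P-SSC libraries, the reverse of H19, but these are only 7 to 42 reads. One graft library was at the BM-MSC level and the other 3 were at the low end. Igf2 did not pass the test in grafts against BM-MSCs (log2 difference -1.88 ± 1.17 SE, adjusted p = 0.338) or against P-SSCs (-0.63 ± 1.17 SE, adjusted p = 0.739), and in the latter the sign turned under GC correction (0.35) and quantile normalization (2.16).

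The receptor Igf2r was found in every library and varied widely within each group. It was 934, 239 and 850.1 in P-SSCs, 378, 16.9 and 167 in BM-MSCs and 45.8, 342, 370 and 284 in grafts, so the groups overlapped. The log2 difference was 0.96 ± 1.12 SE (adjusted p = 0.617) for grafts against BM-MSCs and -1.51 ± 1.12 SE (adjusted p = 0.387) against P-SSCs. Leaving out BM-MSC 2+4 turned the former to -0.31. The antisense RNA Airn, which overlaps Igf2r, was 86.2, 104 and 42.7 in P-SSCs, 103, 68.5 and 7.89 in BM-MSCs and 25.4, 0, 0 and 0 in grafts, and strand was not stated for the counting, so reads of the overlap cannot be assigned.

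Grb10 encodes an adaptor that binds the insulin and IGF1 receptors and restrains their signal. It was 3939, 2860 and 2198 in P-SSCs, 1390, 904 and 1619 in BM-MSCs and 334, 317, 499 and 895 in grafts. The groups formed 3 steps without overlap, highest in P-SSCs and lowest in grafts. Against P-SSCs the grafts were 5.86-fold lower in mean (log2 difference -2.64 ± 0.42 SE, adjusted p = 0.00141), and Grb10 passed in 20 of 21 other settings, the exception being the GC pattern as a covariate (adjusted p = 0.058). Against BM-MSCs Grb10 did not pass (-1.44 ± 0.42 SE, adjusted p = 0.0641), although DESeq2 on recovered reads called it (adjusted p = 0.0263). After GC correction this difference was -0.59.

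Plagl1, a zinc finger regulator in a network of imprinted genes, was the only member with a log2 difference above 0 in grafts against P-SSCs. It was 1015, 788 and 1384 in 3 graft libraries and 3.02 in graft 3. The levels were 633, 258 and 199 in BM-MSCs and 200.5, 107 and 198 in P-SSCs. The 3 higher graft libraries lay above all 6 steady-state libraries and graft 3 below all of them. The test did not pass against P-SSCs (log2 difference 0.67 ± 1.74 SE, adjusted p = 0.818) or BM-MSCs (-0.31 ± 1.74 SE, adjusted p = 0.939). Without graft 3 the differences were 2.67 (adjusted p = 0.00966) and 1.69 (adjusted p = 0.0966), so both limma values depend strongly on graft 3. They also depend on the method. With graft 3 kept, DESeq2 and edgeR gave 2.23 and 2.34 against P-SSCs and 1.13 and 1.12 against BM-MSCs, none of them called. GC correction turned the sign against BM-MSCs to 0.48 with all libraries kept.

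**Figure D3:**
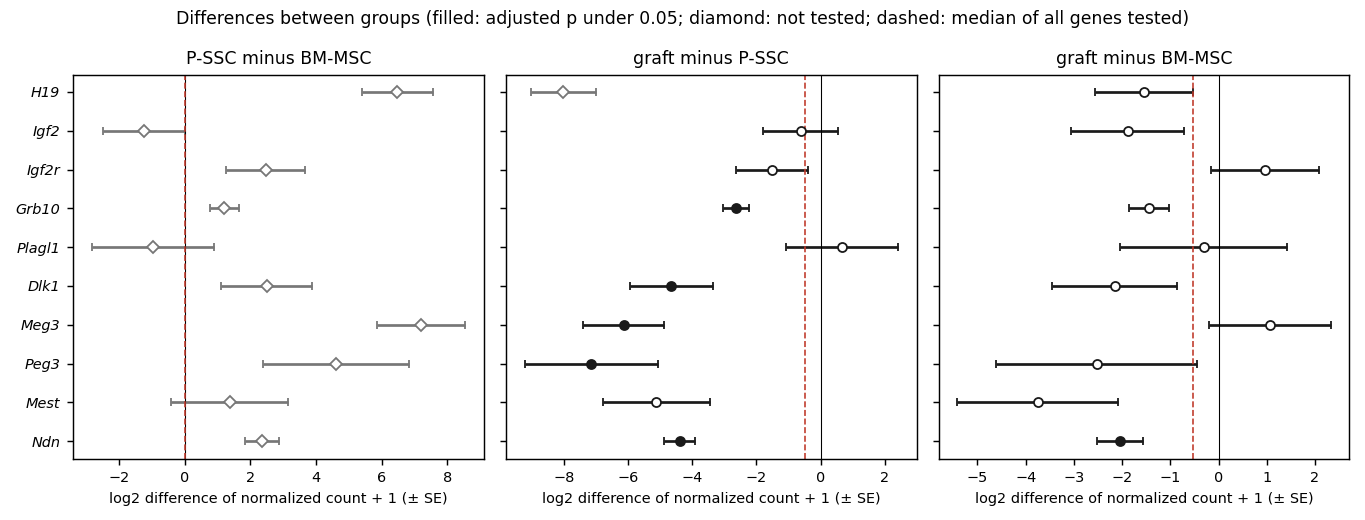
Log2 differences (± SE) of the 10 members between groups, filled where the Benjamini-Hochberg adjusted p was under 0.05 and drawn as diamonds where the contrast was used to choose members and no test is given. Dashed lines mark the median of all 13644 genes. Against P-SSCs, Grb10, Dlk1, Meg3, Peg3 and Ndn are filled, and against BM-MSCs Ndn alone.

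Dlk1 and Meg3 lie 77.7 kb apart on chromosome 12, in an imprinted cluster that makes DLK1, a transmembrane protein that inhibits adipocyte differentiation, from the paternal copy and noncoding RNAs from the maternal copy. Meg3 was 178, 299 and 58.2 in P-SSCs, 0 in all 3 BM-MSC libraries and 0, 0, 18.1 and 0 in grafts. Like H19, this maternal noncoding RNA was present in every periosteal library and at or near 0 in marrow. P-SSCs were at least 57.8-fold above BM-MSCs in mean, and the grafts were lower than P-SSCs (log2 difference -6.13 ± 1.26 SE, adjusted p = 0.00684). Meg3 did not pass with edgeR, DESeq2 or the GC pattern as a covariate (adjusted p = 0.207, 0.135 and 0.167).

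Rian, the next noncoding RNA of the cluster, is not a member and gave the same order. Rian was 103, 29.3 and 25.2 in P-SSCs and listed at 0 in all 7 marrow libraries. The grafts were at least 21.3-fold lower than P-SSCs (adjusted p = 0.000719) and P-SSCs at least 17.0-fold higher than BM-MSCs (adjusted p = 0.00145). Both Rian calls were lost with DESeq2 (adjusted p = 0.0666 and 0.184) and edgeR (adjusted p = 0.0624 and 0.157). Rian entered the test through its P-SSC level only, so its p-values add no separate support to the values.

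Dlk1 was low everywhere. It was 26.0, 8.92 and 58.2 in P-SSCs, 0, 43.2 and 0.986 in BM-MSCs and listed at 0 in all 4 grafts. BM-MSC 2+4 alone held nearly all marrow reads, within the range of P-SSCs. Grafts were at least 12.6-fold lower than P-SSCs (log2 difference -4.65 ± 1.3 SE, adjusted p = 0.0317). The call was lost on leaving out any graft library, P-SSC 1 or P-SSC 4 (adjusted p = 0.0519 to 0.0900) and held in 9 of 20 other settings.

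Peg3, a paternally expressed zinc finger gene, was 917, 274 and 547 in P-SSCs, 67.9, 1.05 and 66.1 in BM-MSCs and 181, 0, 0 and 0 in grafts. The P-SSC libraries were all above the marrow libraries, and graft 1 alone held Peg3 reads among the grafts. Against P-SSCs the grafts were 12.8-fold lower in mean (log2 difference -7.14 ± 2.08 SE, adjusted p = 0.0383). The graft libraries at 0 make this log2 difference larger than the ratio of means, and edgeR gave -3.57. The call was lost on leaving out graft 2, 3 or 4, BM-MSC 1 or 3, or any P-SSC library (adjusted p = 0.0560 to 0.142) and held in 9 of 21 other settings. Zim1, which lies 7442 bases from Peg3, was 24.9, 0 and 30.0 in P-SSCs and 0 in all 7 marrow libraries.

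Mest, a paternally expressed gene for a hydrolase-like protein of mesoderm, was 67.5, 48.4 and 1035 in P-SSCs, 97.1, 42.2 and 47.3 in BM-MSCs and 0, 41.3, 0 and 7.77 in grafts. P-SSC 4 stood apart from the other steady-state libraries, and all 4 grafts were below all 6 of them. Within the low GC pattern, the mean was 58.0 in P-SSC 1 and 2+5 and 62.2 in BM-MSCs. Mest did not pass for grafts against P-SSCs (log2 difference -5.11 ± 1.67 SE, adjusted p = 0.0584) or BM-MSCs (-3.75 ± 1.67 SE, adjusted p = 0.192).

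Ndn, encoding necdin, a MAGE-family protein that holds back cell proliferation, had the highest mean per kilobase of exon among members in all 3 groups. In plain normalized counts Ndn led in P-SSCs and BM-MSCs. In grafts its mean of 478 lay below those of Plagl1 (797) and Grb10 (512). Ndn was 8756, 10691 and 6075 in P-SSCs, 1590, 1978 and 1368 in BM-MSCs and 335, 217, 315 and 1045 in grafts. As for Grb10, the 3 groups did not overlap. The grafts were 17.8-fold lower in mean than P-SSCs (log2 difference -4.39 ± 0.48 SE, adjusted p = 0.000168), and Ndn passed in 21 of 21 other settings (highest adjusted p = 0.011). Against BM-MSCs the mean was 3.44-fold lower (-2.04 ± 0.48 SE, adjusted p = 0.0298). That call was lost in 9 of 21 settings, among them GC correction (-1.35, adjusted p = 0.0962), the GC pattern as a covariate (adjusted p = 0.809), edgeR (adjusted p = 0.0760), a fit of the 2 groups alone (0.0607) and leaving out graft 1 (0.0622), graft 3 (0.0609), BM-MSC 1 (0.0920), BM-MSC 2+4 (0.123) or BM-MSC 3 (0.0826). The direction was lower in all 21.

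Mkrn3, another paternally expressed gene of the Ndn domain, went the other way between periosteum and marrow. Mkrn3 was 26.1, 38.0 and 66.1 in BM-MSCs, 0, 11.5 and 0 in P-SSCs and 0 in all 4 grafts. It was lower in grafts than in BM-MSCs by at least 17.6-fold (adjusted p = 0.0131, held in 16 of 20 other settings) and lower in P-SSCs than in BM-MSCs (log2 difference -4.16 ± 1.11 SE, adjusted p = 0.0412), though the latter call held in only 4 of 20 other settings.

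Levels between genes were compared per kilobase of annotated exon. In P-SSCs, Ndn was highest (2303 ± 628 normalized counts per kb, SD, n = 3), followed by Grb10 (330.0 ± 96.7), H19 (109 ± 32.8), Mest (97.3 ± 143), Igf2r (72.5 ± 40.7), Peg3 (43.5 ± 24.2), Plagl1 (21.5 ± 6.80), Meg3 (9.86 ± 6.67), Dlk1 (5.48 ± 4.42) and Igf2 (3.23 ± 1.91). Ndn and Grb10 stood clear of their neighbours in that order, and from H19 down each gene overlapped the next one within 1 SD. In grafts the leading members were Ndn (129 ± 103, n = 4), Plagl1 (102 ± 74.7) and Grb10 (56.3 ± 29.5), which lay within each other's spread. In BM-MSCs they were Ndn (445 ± 83.7, n = 3) and Grb10 (144 ± 40.2).

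Counted together, 5 of the 9 members other than H19 fell in grafts against P-SSCs (Dlk1, Meg3, Peg3, Grb10 and Ndn) and 0 rose, where 12% of all genes were called lower, 6.08% higher and 18.1% in either direction. In 6 of these 9 (Mest as well), all grafts lay below all P-SSC libraries, against 18.5% of all genes, and in 0 above, against 8.06%. Against BM-MSCs 1 of 10 fell (Ndn) and 0 rose, where 5.06% of all genes were called lower, 2.61% higher and 7.67% in either direction. All grafts lay below all BM-MSC libraries in 3 of 10 (Grb10, Mest and Ndn), against 14.7%, and above them in 0, against 10.3%. In P-SSCs against BM-MSCs, the contrast used to choose them, 5 of 10 lay higher without overlap and 1 (Igf2) lower, beside 15.1% and 15.8% of all genes, from which nothing is read. The median log2 difference was -4.39 in grafts against P-SSCs over the 9 members other than H19 (-3.66 with genes at 0 set to their bound). Over all 10 it was -1.71 in grafts against BM-MSCs (-1.66) and 2.41 in P-SSCs against BM-MSCs, from which again nothing is read, beside medians over all genes of -0.47, -0.53 and 0.00 in the same order. The comparisons share libraries and are not independent of each other. Grafts against P-SSCs also sets marrow against periosteum, and the members were chosen with earlier results of these data known. The counts of members in that comparison are therefore a description beside the shares of all genes.

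Other imprinted genes did not move as one group. Of 64 listed, 50 were in the table and 44 were tested, with the caution that many are imprinted only in placenta or brain. In grafts against P-SSCs 5 rose and 10 fell (34.1% of those tested). Over all genes 6.08% rose, 12% fell and 18.1% were called in either direction. In grafts against BM-MSCs 3 rose and 3 fell (13.6%), beside 2.61%, 5.06% and 7.67% of all genes. In P-SSCs against BM-MSCs 6 rose and 4 fell (22.7%), beside 4.57%, 4.58% and 9.15%. The called share thus lay above that of all genes in each comparison, in both directions. The medians of the list were -0.71, -0.70 and 0.12, near those of all genes.

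Among the imprinted genes that rose in grafts, Cdkn1c and Gnas were also higher in P-SSC 4, the steady-state library with the same GC pattern, than in the other steady-state libraries, and Smoc1 was not. Cdkn1c, a cell cycle inhibitor, was 816, 1525, 1251 and 633 in grafts, 111, 110 and 57.2 in BM-MSCs and 147, 217 and 1423 in P-SSCs. It was higher in grafts than in BM-MSCs (log2 difference 3.48 ± 0.75 SE, adjusted p = 0.0214), a call that held in 16 of 21 other settings. After GC correction the Cdkn1c difference was 3.94 (adjusted p = 0.00775). With the GC pattern as a covariate, which rests on P-SSC 4, it was 0.49 (adjusted p = 0.908). Gnas, the stimulatory G protein subunit, was 482 to 644 in grafts, 23.0 to 61.2 in BM-MSCs and 54.0, 30.6 and 208 in P-SSCs, and higher in grafts than in BM-MSCs (3.95 ± 0.79 SE, adjusted p = 0.0155) and P-SSCs (2.96 ± 0.79 SE, adjusted p = 0.0271). These Gnas calls held in 17 and 16 of 21 other settings. After GC correction the Gnas differences were 4.72 (adjusted p = 0.00623) and 3.83 (adjusted p = 0.00660). With the covariate they were 1.62 (adjusted p = 0.817) and 1.40 (adjusted p = 0.473). The matrix protein gene Smoc1 was 2792 to 6118 in grafts, 580 to 1088 in BM-MSCs and 55.1 to 256 in P-SSCs, and it was higher in grafts than in P-SSCs (5.23 ± 0.51 SE, adjusted p = 8.58e-05) in 21 of 21 other settings.

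Several genes of the list followed H19 and Meg3 in being periosteal. Calcr, the calcitonin receptor, was 44.7, 71.3 and 62.0 in P-SSCs and listed at 0 in all 7 marrow libraries. Ddc, an amine-synthesis enzyme beside Grb10, was 107, 85.3 and 89.2 in P-SSCs, 11.5, 0 and 0 in BM-MSCs and 0 in all 4 grafts. Cmah, of sialic acid synthesis, was 733, 865 and 804 in P-SSCs, 0 in all 3 BM-MSC libraries and 199, 0, 0 and 0 in grafts. All 3 were lower in grafts than in P-SSCs (adjusted p = 0.000272, 0.00158 and 0.0147) and higher in P-SSCs than in BM-MSCs (adjusted p = 0.000584, 0.0116 and 0.00946). Calcr and Ddc entered the test through their P-SSC level only, so their p-values add no separate support. The receptor tyrosine kinase Axl was 63237 to 92157 in P-SSCs and 1359 to 6123 in marrow. Snrpn, from the Ndn domain, was 370, 316 and 189 in P-SSCs, 59.5, 60.1 and 70.0 in BM-MSCs and 0, 0, 0 and 110 in grafts, and lower in grafts than in P-SSCs (log2 difference -6.44 ± 1.70 SE, adjusted p = 0.0248). The Snrpn call held in 13 of 21 other settings and was lost with edgeR, DESeq2 and the GC pattern as a covariate (adjusted p = 0.363, 0.227 and 0.274).

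Beside Mkrn3, the genes of the list that fell in grafts against BM-MSCs were Gatm and Dcn. Gatm, of creatine synthesis, was 117, 302 and 307 in BM-MSCs, 46.7, 0 and 1320 in P-SSCs and 0 in all 4 grafts, at least 98.3-fold lower than BM-MSCs (adjusted p = 0.0425), a call that held in 9 of 21 other settings. The matrix proteoglycan Dcn was 10582 to 22192 in grafts, 29328 to 42853 in BM-MSCs and 330631 to 481665 in P-SSCs. It was lower in grafts than in BM-MSCs by -1.03 ± 0.27 SE on the log2 scale (adjusted p = 0.0422) and than in P-SSCs by -4.68 ± 0.27 SE (adjusted p = 3.21e-06), and the former call held in 7 of 21 other settings.

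**Figure D4:**
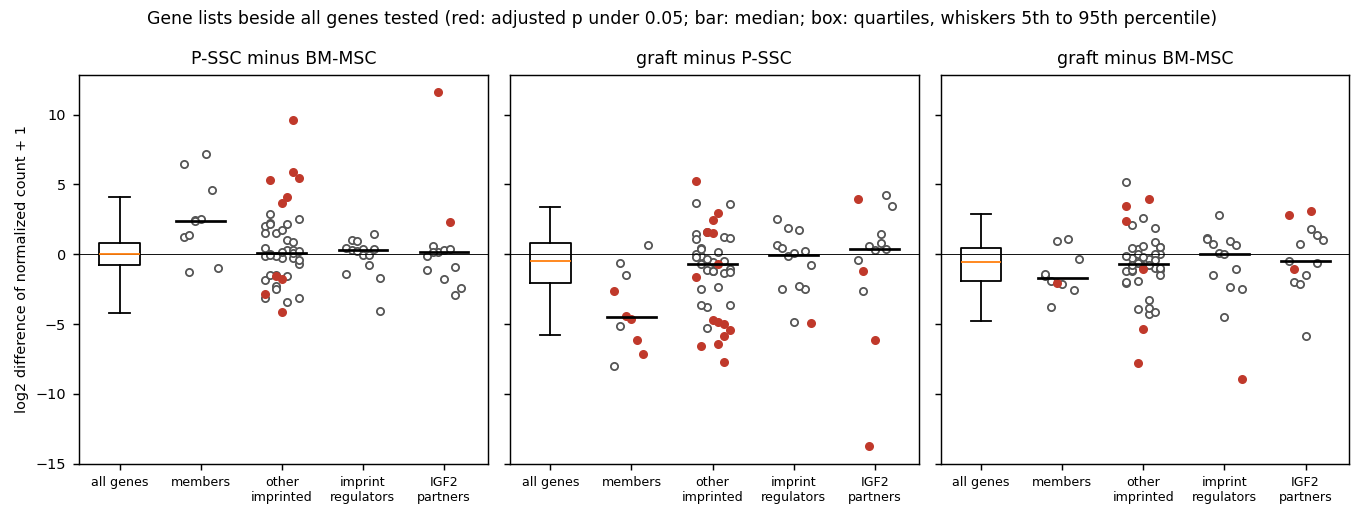
Log2 differences of the members, other imprinted genes, imprint regulators and IGF2 partners beside the box of all 13644 genes tested, red where the adjusted p was under 0.05 and open otherwise or where no test is given for a member. In the middle panel the members, H19 included, have a median of -4.52, which is a description, and the other imprinted genes one of -0.71.

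Of the genes that write or protect imprints, such as DNA methyltransferases, 1 passed in each comparison with grafts. The list held 16 genes, of which 15 were in the table and 14 were tested. Over all genes, 7.67% were called in grafts against BM-MSCs and 18.1% against P-SSCs, so 1 of 14 does not stand out. Uhrf1, which brings the maintenance methyltransferase to newly copied DNA, was 254, 630 and 1223 in BM-MSCs, 86.2, 173 and 1.94 in P-SSCs and 0, 0, 0 and 0.863 in grafts. The grafts were at least 286-fold below BM-MSCs (adjusted p = 0.00688) and at least 35.4-fold below P-SSCs (adjusted p = 0.0452), the latter lost in 14 of 21 settings. Uhrf1 is also a gene of dividing cells. In P-SSCs against BM-MSCs 0 of the 14 passed with limma, beside 9.15% of all genes, and 1 had an unadjusted p under 0.05.

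Of 14 listed partners of IGF2 (receptors, binding proteins and RNA-binding proteins), 13 were tested. In grafts 2 rose and 1 fell against BM-MSCs, where 2.61% of all genes rose and 5.06% fell. Against P-SSCs 1 rose and 3 fell in grafts, where 6.08% of all genes rose and 12% fell. In P-SSCs against BM-MSCs 2 rose and 0 fell, where 4.57% of all genes rose and 4.58% fell. Igfbp6, a binding protein with preference for IGF2, was 125534, 160683 and 95113 in P-SSCs, 39.7, 143 and 9.86 in BM-MSCs and 0, 0, 117 and 57.8 in grafts. It was higher in P-SSCs than in BM-MSCs by 11.60 ± 1.82 SE on the log2 scale (adjusted p = 0.00192), and lower in grafts than in P-SSCs (-13.73 ± 1.71 SE, adjusted p = 0.000328), in 21 of 21 other settings each. Igfbp4, a binding protein, was 130237 to 192645 in grafts, 21407 to 29924 in BM-MSCs and 5111, 6456 and 39008 in P-SSCs. It rose in grafts against P-SSCs (3.98 ± 0.57 SE, adjusted p = 0.000765) and BM-MSCs (2.83 ± 0.57 SE, adjusted p = 0.0153). These Igfbp4 calls held in 20 and 16 of 21 other settings. Against BM-MSCs the difference was 3.74 after GC correction (adjusted p = 0.00320) and 0.07 with the GC pattern as a covariate (adjusted p = 0.968).

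Irs2, which carries the signal of the insulin and IGF1 receptors, was 809 to 1800 in grafts, 93.0 to 282 in BM-MSCs and 526 to 852 in P-SSCs. It rose in grafts (log2 difference 3.12 ± 0.51 SE, adjusted p = 0.00614) and in P-SSCs (2.29 ± 0.54 SE, adjusted p = 0.0230) against BM-MSCs. The latter Irs2 call held in 15 of 21 other settings and was lost with GC correction (adjusted p = 0.0644) and edgeR (adjusted p = 0.0789), among others. Igfbp5, abundant in bone, was 13336 to 27363 in grafts, 44687 to 45751 in BM-MSCs and 35037 to 67819 in P-SSCs, and fell in grafts against BM-MSCs (-1.06 ± 0.28 SE, adjusted p = 0.0453) and P-SSCs (-1.22 ± 0.28 SE, adjusted p = 0.0123). After GC correction these 2 differences were -0.20 (adjusted p = 0.799) and -0.38 (adjusted p = 0.555). With the GC pattern as a covariate they were -1.20 (adjusted p = 0.636) and -1.31 (adjusted p = 0.129). The Igfbp5 calls held in 6 and 16 of 21 other settings. Igf2bp2, which binds Igf2 RNA, was 0, 0, 0 and 165 in grafts, 309, 73.8 and 382 in BM-MSCs and 500, 259 and 128 in P-SSCs, and was called lower against P-SSCs only (-6.16 ± 1.84 SE, adjusted p = 0.0422), in 7 of 21 other settings.

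Markers of other cells moved with the groups beside muscle. The summed level of 5 of 8 endothelial markers was 3291 to 6871 in P-SSCs, nearly all of it Tek, and 0 to 290 in marrow. Cdh5, a defining endothelial gene, was 2.08, 58.6 and 14.5 in P-SSCs. The other markers of the list ran the other way. Emcn and Tie1 were found in BM-MSCs and listed at 0 in P-SSCs and grafts, and the P-SSC mean of Vwf was 0.138 times that of BM-MSCs. Hematopoietic markers summed to 19010 to 37682 in BM-MSCs, 3358 to 73129 in grafts, where graft 3 was highest, and 71.7 to 156 in P-SSCs. Erythroid markers summed to 59158 to 207510 in BM-MSCs, 1566 to 27755 in grafts and 208 to 1407 in P-SSCs. Chondrocyte markers summed to 36216 to 80166 in BM-MSCs, 656 to 3884 in grafts and 734 to 1740 in P-SSCs. Their part in the members' differences was not tested.

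**Figure D5:**
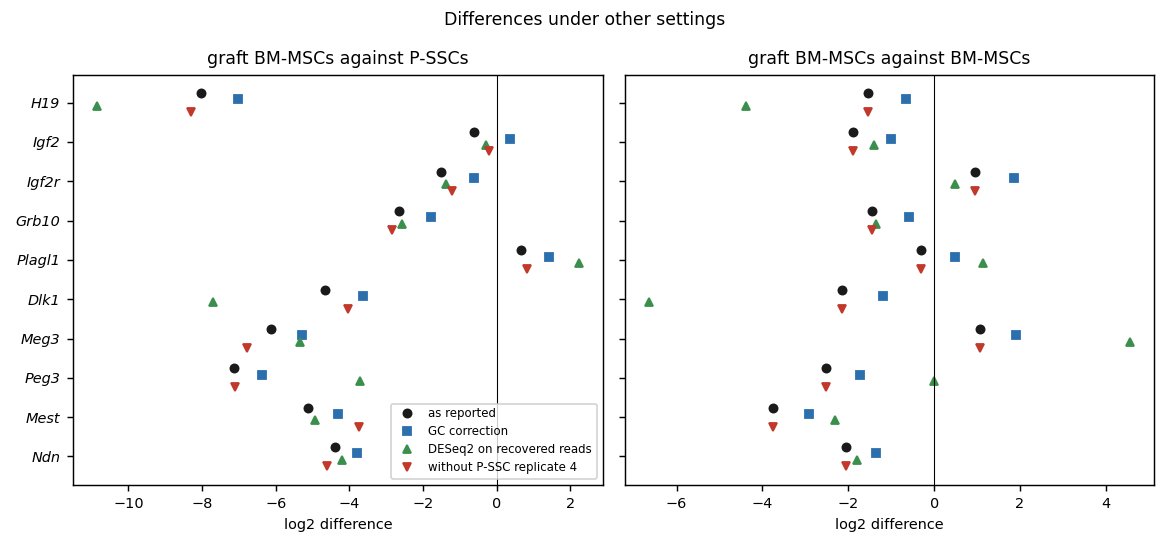
Log2 differences of the members in grafts against P-SSCs (left) and BM-MSCs (right) as reported, after GC correction, with DESeq2 on recovered reads and without P-SSC 4. Ndn and Grb10 keep their side in every setting drawn, while Plagl1 crosses 0 on the right.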

How the data were processed

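CD51+CD200+ cells were sequenced in 10 libraries, 4 of them from grafts and 3 from each steady-state population; the steady-state libraries were re-analysed by the study from an earlier series. The authors trimmed and aligned reads, counted them per gene and deposited one table of normalized counts, a signal in which each count is divided by a DESeq2 size factor (0.785 to 1.77 as recovered here). The submitters' notes name FastQC 0.11.5, cutadapt 1.15, STAR 2.5, Subread 1.4.6, DESeq2 1.26.0 and GRCm39, while the study's methods name another STAR version and GRCm38, so coordinates here are those of GENCODE M21 on GRCm38, matched by gene ID (15052 of 15078 genes). Strand of counting was not given in the sources used here.

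Whole reads were recovered from the steps of low values (100% within 0.1 reads). Because the values are normalized, limma (3.58.1, R 4.3.3) was the main test, on log2(value + 1) with 1 mean per group, a trend and all 10 libraries. It covered 13644 genes with a mean of at least 10 (1434 removed). H19, Dlk1, Meg3, Rian, Calcr and Ddc reached that mean through P-SSCs only, and Mkrn3 through BM-MSCs only. Their p-values are read as a description of those levels. Tests were two-sided and Benjamini-Hochberg adjusted, at a threshold of 0.05. The added 1 shrinks differences between low values. Where only part of a group is at 0, the log2 difference can exceed the log2 ratio of means. This holds for Peg3, Snrpn and Igf2bp2 in grafts against P-SSCs. The filter and fit were tested on simulated data. edgeR (4.0.16) and DESeq2 (1.42.0) ran on recovered reads as alternatives. Members not tested in a contrast, and the genes named, follow a rule: every member, up to 6 called genes per list and comparison by size of change, and the 8 genes most correlated with H19. Members and lists were chosen with earlier results of these data known. No 2 libraries agreed within sampling noise (chi-square per degree of freedom at least 75.2). Replicate numbers did not pair libraries (5 pairs, correlation of deviations -0.019 to 0.030). Floors cover counting error only.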

Additional observations from a re-analysis of the deposited data

Results flagged for a closer look

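In 4 of the 8 members with reads in grafts, 1 of the 4 graft libraries lay farther from the others than Dixon's 95% limit allows, on the log2 scale. They were Igf2r in graft 1 (45.8, against 284 to 370), Meg3 in graft 3 (18.1, with the other 3 listed at 0), Peg3 in graft 1 (181, with the other 3 listed at 0) and Plagl1 in graft 3 (3.02, against 788 to 1384). Chance flags about 1 in 20 such groups, and for Meg3 and Peg3 the 3 tied values at 0 set the limit.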

How the results depend on the processing

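Ndn and Grb10 were lower in grafts than in P-SSCs under all 21 settings without a replicate block. Of the members, 5 other than H19 were called there; edgeR called 2, DESeq2 3, the GC pattern as a covariate 1 and an adjusted p of 0.01 3, and 3 to 5 were called on leaving out 1 library (3 without graft 4, P-SSC 1 or P-SSC 4). Against BM-MSCs, 1 member was called; the fit of 2 groups, edgeR, GC correction, the covariate and an adjusted p of 0.01 called 0 and DESeq2 2, with 0 to 2 on leaving out 1 library. Of other imprinted genes, 6 were called in grafts against BM-MSCs, with edgeR 1, the covariate 0 and an adjusted p of 0.01 0, and 1 to 7 on leaving out 1 library (1 or 2 without any BM-MSC library, 4 without graft 3). The 15 called against P-SSCs were 8 in the fit of 2 groups, 6 with edgeR, 9 with the covariate and 7 at an adjusted p of 0.01 (9 to 15 on leaving out 1 library, 9 without P-SSC 1), and the 10 in P-SSCs against BM-MSCs were 6 at a mean of at least 100, 5 with edgeR and 6 with DESeq2 (7 to 10). With a replicate block on numbers that do not pair libraries, the 5 counts in this order were 0, 0, 0, 3 and 0, and with the GC correction too 0, 0, 0, 3 and 1.

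Signs that reversed concerned uncalled values. In grafts against BM-MSCs they were H19 (0.59) and Igf2 (0.62) under quantile normalization, Igf2r under the block (-0.71) and without BM-MSC 2+4 (-0.31), Dlk1 under the block with GC correction (0.24), and Plagl1 under quantile normalization (0.26), edgeR (1.12), DESeq2 (1.13), GC correction (0.48) and without graft 3 (1.69) or BM-MSC 1 (0.18), with -1.12 as the lowest value on leaving out 1 library. In grafts against P-SSCs they were Igf2 under quantile normalization (2.16), GC correction (0.35), the block (0.16) and both (0.94), and Plagl1 without graft 4 (-0.14), with 2.67 as the highest value on leaving out 1 library. The cause was not tested. Over all genes, 356 of 1046 calls in grafts against BM-MSCs were higher, and 877 of 1229 after GC correction, which moved the median difference to 0.23 there and to 0.28 against P-SSCs. Depth limits Igf2, Dlk1 and Meg3, whose marrow values rest on 0 to 49 reads per library.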
